A study of Homo sapiens with 16 samples.

Results

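LSD1 islands were examined around 10 genes of epithelial junctions and identity: CDH1, EPCAM, ESRP1, ESRP2, CLDN3, CLDN4, OCLN, KRT8, KRT18 and GRHL2. An island is a stretch in which the immunoprecipitated (IP) library held more reads than its Input, as called by the authors. Islands were taken if they shared at least 1 bp with 1 of 8 fixed windows of the hg19 build, where CLDN3 and CLDN4 share a window, as do KRT8 and KRT18. This gave 85 islands of 85586 in all lists. An island or region said to be at a gene is one in its window. Whether it lies on that gene or on a neighbour was not determined. The windows lie on chromosome 16 at 68.75 to 68.89 Mb (CDH1) and 68.24 to 68.29 Mb (ESRP2), on chromosome 2 at 47.57 to 47.64 Mb (EPCAM) and on chromosome 8 at 95.63 to 95.74 Mb (ESRP1) and 102.48 to 102.7 Mb (GRHL2). The others lie on chromosome 7 at 73.16 to 73.27 Mb (CLDN3 and CLDN4), chromosome 5 at 68.76 to 68.87 Mb (OCLN) and chromosome 12 at 53.27 to 53.37 Mb (KRT8 and KRT18).

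The series mapped LSD1 by chromatin immunoprecipitation sequencing in 4 lines that the labels call HEK-based, all crosslinked and precipitated with the same antibody. Each line had 2 replicate cultures, and each culture an IP and an Input library. As known of the study rather than from the labels, Epi-CTR serves as the control, the long non-coding RNA HOTAIR is expressed in Epi-HOT, Epi-HOT<delta>L expresses HOTAIR without its LSD1-interacting part and Epi-HOT<delta>P expresses HOTAIR without its PRC2-interacting part. The labels give the names alone and do not say whether a line is a clone or how the RNA is driven. The lists hold no expression values, so the epithelial state of the cells was not checked.

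LSD1 (KDM1A) removes methyl groups from histone H3 and works in repressor complexes with CoREST. In epithelial-mesenchymal transition the repressor SNAI1 brings LSD1 to E-boxes of epithelial promoters, of which the one at CDH1 is the textbook case. HOTAIR is known as a scaffold for LSD1 and PRC2 and for its part in this transition. The 10 genes cover its usual epithelial readouts: adhesion molecules, tight junction proteins, simple-epithelium keratins, splicing regulators and a transcription factor.

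Promoter sequences from RefSeq (GRCh38.p14) were used for 4 of the 10 genes, CLDN3, CLDN4, OCLN and KRT8, which the promoter table at hand held. They are shown because the E-box CACCTG, read on both strands as CACCTG or CAGGTG, is the site bound by SNAI1 and ZEB1. The genes were not chosen by their islands. The 250 bases before each start follow, 5′ to 3′ in the direction of the gene, with that E-box in capitals. The coordinates are of GRCh38.p14 and cannot be set beside the hg19 positions of the islands, so whether an island covers these bases is not known. CLDN3 and KRT8 lie on the minus strand and the others on the plus strand.
CLDN3 chr7:73770271-73770520: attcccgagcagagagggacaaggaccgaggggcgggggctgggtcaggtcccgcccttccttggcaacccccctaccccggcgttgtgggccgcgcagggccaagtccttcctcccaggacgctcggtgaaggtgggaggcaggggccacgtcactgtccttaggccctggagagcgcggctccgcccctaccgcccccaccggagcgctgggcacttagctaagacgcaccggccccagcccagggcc
CLDN4 chr7:73830746-73830995: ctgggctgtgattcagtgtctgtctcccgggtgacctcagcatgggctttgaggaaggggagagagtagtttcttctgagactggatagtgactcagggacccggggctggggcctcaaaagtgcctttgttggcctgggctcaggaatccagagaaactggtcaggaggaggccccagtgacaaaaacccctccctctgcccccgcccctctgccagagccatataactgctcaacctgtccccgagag
OCLN chr5:69492297-69492546: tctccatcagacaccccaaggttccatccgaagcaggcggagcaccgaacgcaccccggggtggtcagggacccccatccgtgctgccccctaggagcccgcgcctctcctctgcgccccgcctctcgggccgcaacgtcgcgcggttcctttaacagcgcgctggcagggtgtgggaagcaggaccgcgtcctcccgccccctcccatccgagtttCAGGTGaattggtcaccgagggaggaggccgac
OCLN chr5:69492540-69492789: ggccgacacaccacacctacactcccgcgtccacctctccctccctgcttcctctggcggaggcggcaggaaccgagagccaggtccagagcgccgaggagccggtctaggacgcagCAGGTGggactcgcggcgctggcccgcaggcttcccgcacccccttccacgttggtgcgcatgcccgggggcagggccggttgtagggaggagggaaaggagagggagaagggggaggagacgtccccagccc
KRT8 chr12:52926470-52926719: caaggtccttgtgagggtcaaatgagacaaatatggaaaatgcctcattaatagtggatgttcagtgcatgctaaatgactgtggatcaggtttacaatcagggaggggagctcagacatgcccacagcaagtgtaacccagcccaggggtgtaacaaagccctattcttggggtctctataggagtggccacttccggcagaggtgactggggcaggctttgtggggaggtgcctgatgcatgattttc
The E-box occurred once in each of the 2 OCLN promoters, beginning 33 and 133 bases before the start. It was absent from the claudin and KRT8 sequences shown. Whether each sequence lies at the main start of its gene was not checked. Of all 35116 promoters of this length, 17.5% held it.

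The 8 lists held 1116 to 20592 islands, with no reads, so depth is unknown and a window without an island may be a window with fewer reads. Epi-HOT replicate 2 and Epi-HOT<delta>P replicate 1, the shortest lists with 1778 and 1116 islands, had none in any of the windows. Spread evenly over the autosomes, their islands would have met the windows 0.625 and 0.400 times, so their zeros cannot be told from short lists. A count of 0 allows a share of up to 0.169% and 0.269% of these lists (3 islands, counting error only). The part of list length in the results was not tested. Replicates are separate cultures, by the series' design text.

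Islands at the epithelial genes came mostly from Epi-CTR and Epi-HOT<delta>L, as did the islands of all lists together. Epi-CTR had 43, Epi-HOT<delta>L 32, Epi-HOT 6 and Epi-HOT<delta>P 4. Epi-CTR and Epi-HOT<delta>L together gave 88.2% of the islands in the windows and 79.5% of all islands. The same 2 shares were 50.6% and 41.5% for Epi-CTR and 37.6% and 38.0% for Epi-HOT<delta>L. They were 7.06% and 9.74% for Epi-HOT, and 4.71% and 10.7% for Epi-HOT<delta>P. An island was present in 7 and 7 of the 8 windows in Epi-CTR replicates 1 and 2, in 8 and 6 in Epi-HOT<delta>L replicates 1 and 2, in 5 windows in Epi-HOT replicate 1 and 3 windows in Epi-HOT<delta>P replicate 2. Each of the 8 windows had an island in at least 1 library, as had 53.4% of 27848 autosomal bins of 100 kb. Both Epi-CTR libraries had an island in 7 windows (87.5%), against 23.8% of bins. Both Epi-HOT<delta>L libraries had one in 6 windows (75.0%), against 22.4% of bins. All 4 of these libraries had one in 5 windows, CDH1, ESRP2, OCLN, the claudins and the keratins, against 14.2% of bins. No window had one in both Epi-HOT or both Epi-HOT<delta>P libraries, where the bins gave 2.09% and 1.47%. That was fixed in advance, since 1 library of each of these lines had no island in any window. Windows are 50 to 220 kb long and centred on genes, while the bins are not, so these shares are a description.

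Islands covered 12.8% and 11.1% of the combined 910 kb of the windows in Epi-CTR replicates 1 and 2, 11.3% and 12.4% in Epi-HOT<delta>L replicates 1 and 2, 7.43% in Epi-HOT replicate 1, and 3.12% for replicate 2 of Epi-HOT<delta>P. The same lists covered 3.24%, 2.87%, 2.77%, 7.26%, 3.00% and 2.81% of the autosomes, in that order. The windows were therefore covered 3.95, 3.89 and 4.06 times as densely as the autosomes in Epi-CTR replicates 1 and 2 and Epi-HOT<delta>L replicate 1. The ratio was 2.48 in Epi-HOT replicate 1, 1.71 in Epi-HOT<delta>L replicate 2 and 1.11 in Epi-HOT<delta>P replicate 2. Epi-HOT replicate 1 and Epi-HOT<delta>P replicate 2 thus covered about as much of the autosomes as an Epi-CTR library, and less of these windows. Their lists were not alike, however. They held 6557 and 8079 islands with median widths of 7.0 and 8.6 kb, against 20592 and 14938 of 3.8 and 4.4 kb in Epi-CTR. They reached 19.9% and 19.4% of the 100 kb bins, against 34.9% and 29.8%. The part of this in the lower cover of the windows was not tested.

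**Figure D1:**
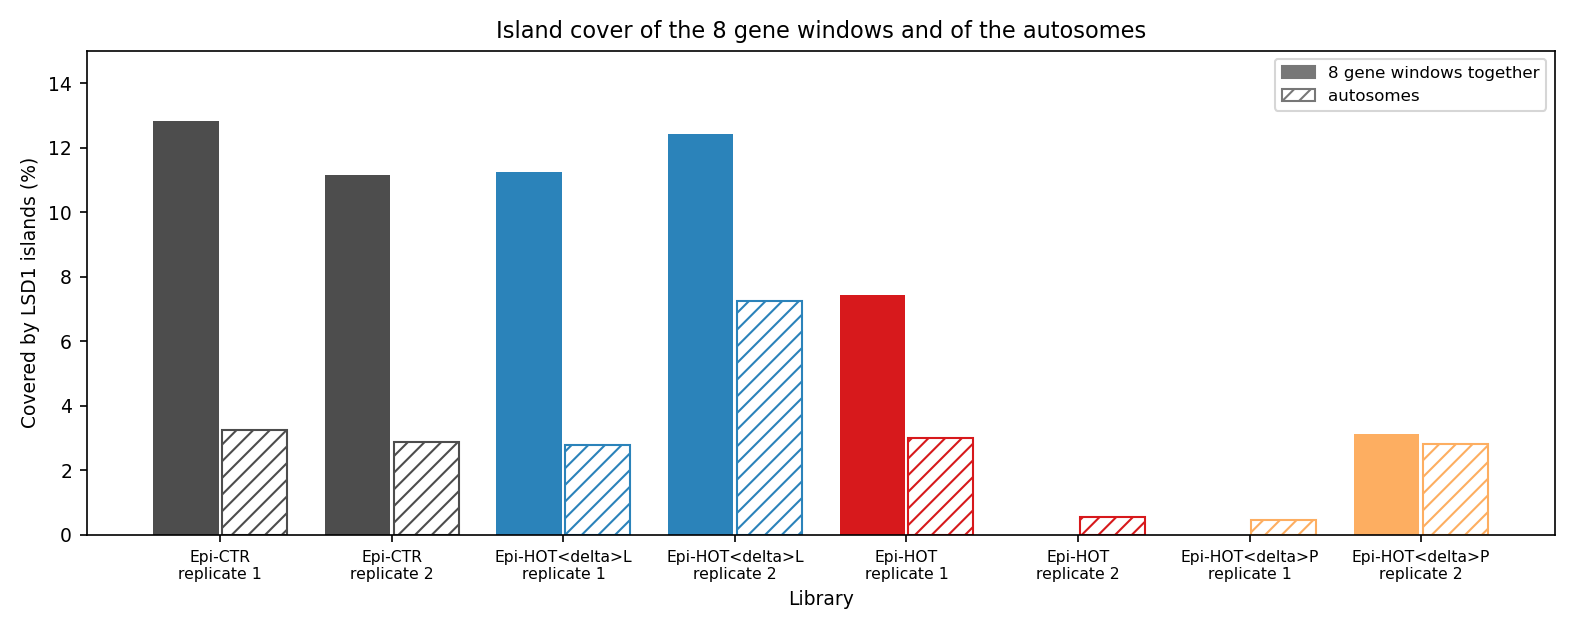
Share of the 8 gene windows together (filled bars) and of the autosomes (hatched bars) covered by LSD1 islands, in percent, for each library. The filled bars lie between 11.1% and 12.8% in the 4 libraries of Epi-CTR and Epi-HOT<delta>L, at 7.43% and 3.12% in Epi-HOT replicate 1 and Epi-HOT<delta>P replicate 2, and at 0 in the others.

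The islands were of ordinary strength. Of the 85, 32 (37.6%) had a false discovery rate (FDR, the authors' adjusted p of IP over Input for an island) of at most 0.001, against 41.3% of all islands. They were 1.2 to 66.2 kb wide with a median of 5 kb, and 12 reached past the edge of a window.

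Covered length was compared between 2 sets of 4 libraries, Epi-HOT with Epi-HOT<delta>P as the first and Epi-CTR with Epi-HOT<delta>L as the second, the first being the lines in which HOTAIR has its LSD1-interacting part. In 2 of the 8 windows (25.0%), CLDN3 and CLDN4 and KRT8 and KRT18, all 4 libraries of the first set lay below all 4 of the second, as in 2.87% of the 100 kb bins, 1.76% of 50 kb bins and 4.02% of 200 kb bins. A window or bin can be separated this way only where all 4 libraries of the second set have an island. That held in 14.2% of the 100 kb bins (3953, of which 800 were separated). It held in most of these gene-centred windows, so the shares are a description. No window showed the reverse, as in 0.0287% of bins. The mean was lower in the first set in 7 windows and higher for GRHL2, while it was lower in 81.2% of the 14861 bins with an island in any library. For each of the 2 windows the exact two-sided permutation p was 0.0286, the smallest that 70 regroupings allow, and 0.983 after Benjamini-Hochberg adjustment over these windows and all bins. The other 6 windows had exact permutation p-values of 0.0857 (CDH1) to 0.714 (GRHL2). With only islands at an FDR of at most 0.001, or with lists cut to 1116 islands, the number of separated windows was 0, and without Epi-HOT replicate 1 it was 4. Cut to that length, few islands per list could meet the windows at all, so the second 0 was nearly fixed. With windows widened by 50 kb on each side, the keratins remained separated, CDH1 joined them and the claudins no longer were. The line is the unit that carries a form of HOTAIR, and 2 lines against 2 cannot go below p = 0.333 in an exact test.

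**Figure D2:**
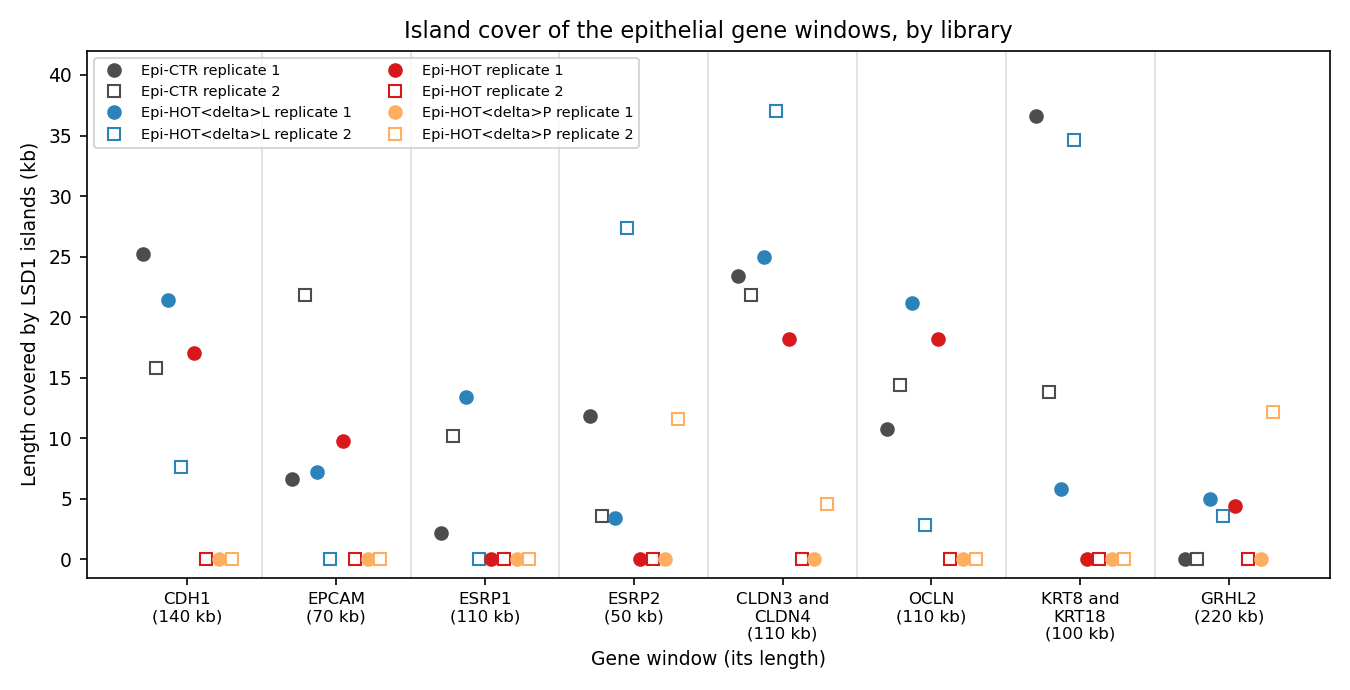
Length covered by LSD1 islands in kb in each gene window, 1 point per library, with replicate 1 as filled circles and replicate 2 as open squares and the colour giving the line. The 4 libraries of Epi-CTR and Epi-HOT<delta>L lie above all others in the CLDN3 and CLDN4 window (21.8 to 37 kb against at most 18.2 kb) and in the KRT8 and KRT18 window (5.8 to 36.6 kb against 0).

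CDH1 encodes E-cadherin, the adhesion molecule of adherens junctions, and lies between CDH3 and TANGO6. Islands covered 25.2 and 15.8 kb of its window in Epi-CTR replicates 1 and 2, 21.4 and 7.6 kb in Epi-HOT<delta>L replicates 1 and 2, 17 kb in Epi-HOT replicate 1 and 0 in the other 3 libraries. Epi-HOT replicate 1 lay inside the range of Epi-CTR and Epi-HOT<delta>L, so the sets overlapped, and without it they did not. Its cover was a single island, chr16:68851401-68868400 (FDR 0.00215), which met islands of Epi-CTR replicate 1 and Epi-HOT<delta>L replicate 2 over 4 kb.

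The 5 CDH1 islands of Epi-CTR replicate 1 were spread along the window. The first, chr16:68771201-68776000, had the lowest FDR of that library in the window (9.94e-06), and Epi-HOT<delta>L replicate 1 had an overlapping one, chr16:68770001-68772800 (FDR 0.0327). Neither second replicate had an island there. Both Epi-CTR libraries and Epi-HOT<delta>L replicate 1 met over 3.6 kb at chr16:68822001-68825600. The smallest FDR of the window, 8.39e-10, belonged to an island of 1.2 kb at chr16:68844801-68846000 that Epi-CTR replicate 2 alone held. It stood at rank 543 of 14938 in that list.

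EPCAM encodes an epithelial cell adhesion molecule. The covered length was 6.6 and 21.8 kb in Epi-CTR replicates 1 and 2, 7.2 kb in Epi-HOT<delta>L replicate 1, 9.8 kb in Epi-HOT replicate 1 and 0 in the other 4. The Epi-CTR libraries shared 2 places, of which chr2:47580601-47584800 was the stronger (FDR 3.65e-07 and 8.37e-06). The island of Epi-HOT replicate 1, chr2:47626801-47636600, met no island of another library and was among the weakest of its list (FDR 0.0464, rank 6443 of 6557). The EPCAM window was thus covered in Epi-HOT only at a place that the control line left free.

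CLDN3 and CLDN4 encode claudins, the strand-forming proteins of tight junctions, and are direct neighbours, with ABHD11 before and METTL27 after them. Their window had the most islands, 19, and was covered in 6 libraries. Islands covered 23.4 and 21.8 kb in Epi-CTR replicates 1 and 2, 25 and 37 kb in Epi-HOT<delta>L replicates 1 and 2, 18.2 and 0 kb in Epi-HOT replicates 1 and 2, and 0 and 4.6 kb in Epi-HOT<delta>P replicates 1 and 2. The mean was 26.8 ± 6.92 kb (SD over 4 libraries of 2 lines) in Epi-CTR and Epi-HOT<delta>L together and 5.7 ± 8.61 kb in the other 4 libraries.

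All 6 libraries had an island over the same 4 kb, chr7:73252401-73256400. Only 1.38% of 100 kb bins had a place shared by 6 or more libraries. The islands there had FDRs of 7.56e-08 and 0.00384 in Epi-CTR, 0.0184 and 1.45e-04 in Epi-HOT<delta>L, 3.14e-06 in Epi-HOT replicate 1, and 0.00564 for replicate 2 of Epi-HOT<delta>P. They were 4.6 to 7.2 kb wide in 5 libraries, but in Epi-HOT replicate 1 the island ran on for 66.2 kb, past the end of the window. It was rank 582 of 6557 in that list.

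The rest of the claudin window differed between libraries, within Epi-CTR as well as between lines. A stretch of 22.2 kb next to the shared place, chr7:73227001-73249200, was covered in both Epi-HOT<delta>L libraries (FDR 0.00639 and 3.47e-05 for the widest islands). Shorter islands covered parts of it in Epi-CTR replicate 1, while Epi-CTR replicate 2 had none there. No library of Epi-HOT or Epi-HOT<delta>P had an island in it. The separation of the sets in this window depended on its edge, which left 18.2 of the 66.2 kb of the island of Epi-HOT replicate 1 inside. In the window widened by 50 kb on each side, Epi-HOT replicate 1 was covered over 99.8 kb, within the range of 50.8 to 122.4 kb in Epi-CTR and Epi-HOT<delta>L, and Epi-HOT<delta>P replicate 2 over 32.4 kb.

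OCLN encodes occludin, another membrane protein of tight junctions, and lies between MARVELD2 and GTF2H2C. A near-identical partial copy of the gene is known nearby on the same chromosome, and no source used here says how reads that match both copies were treated. Islands covered 10.8 and 14.4 kb in Epi-CTR replicates 1 and 2, 21.2 and 2.8 kb in Epi-HOT<delta>L replicates 1 and 2, 18.2 kb in Epi-HOT replicate 1 and 0 in the other 3. The sets overlapped, and as at CDH1 this rested on Epi-HOT replicate 1.

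Cover at OCLN was concentrated in 1 place. A merged region at chr5:68787801-68807600 held islands of 5 libraries, all except Epi-HOT replicate 2 and the Epi-HOT<delta>P pair. Its strongest island was that of Epi-HOT replicate 1, chr5:68792401-68807600 (FDR 7.28e-09, rank 221 of 6557), while those of the other libraries had FDRs of 3.25e-04 to 0.0339. CDH1 and OCLN had islands in the same 5 libraries, the only 2 windows with the same set. Next came pairs sharing 5 of 6 libraries, namely CDH1, OCLN and ESRP2 each with the claudin window.

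KRT8 and KRT18 encode the keratin pair of simple epithelia, and are direct neighbours, with KRT78 before and EIF4B after them. Islands covered 36.6 and 13.8 kb in Epi-CTR replicates 1 and 2 and 5.8 and 34.6 kb in Epi-HOT<delta>L replicates 1 and 2. Epi-HOT and Epi-HOT<delta>P had no island there in any library, and 1 library of each had none in any window. An island in all 4 libraries of Epi-CTR and Epi-HOT<delta>L and in none of the other 4 was found in 1.87% of 100 kb bins. One in all 4 libraries of Epi-CTR and Epi-HOT<delta>L, whatever the others, was found in 14.2%. With the window widened by 50 kb on each side, Epi-HOT replicate 1 was covered over 7.2 kb and Epi-HOT<delta>P replicate 2 over 7.6 kb. The lowest library of Epi-CTR and Epi-HOT<delta>L was then Epi-HOT<delta>L replicate 1, with 13.2 kb. The mean was 22.7 ± 15.3 kb (SD over 4 libraries of 2 lines) in Epi-CTR and Epi-HOT<delta>L together. Replicates of a line differed widely, with 36.6 against 13.8 kb in Epi-CTR and 5.8 against 34.6 kb in Epi-HOT<delta>L.

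The keratin islands met only between pairs of libraries. At most 2 libraries covered any base of the window, while 20.9% of 100 kb bins had a place covered by 3 or more. The Epi-CTR libraries met at chr12:53316401-53322200 (FDR 2.88e-07 and 6.50e-07), where Epi-HOT<delta>L had no island. Epi-HOT<delta>L replicate 2 was covered by an island of 29.8 kb at chr12:53280601-53310400, and replicate 1 by islands of 3.4 and 2.4 kb elsewhere in the window, so that its 2 libraries shared no base there. All 4 islands of Epi-HOT<delta>L met an island of Epi-CTR replicate 1, and 0 met one of Epi-CTR replicate 2.

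**Figure D3:**
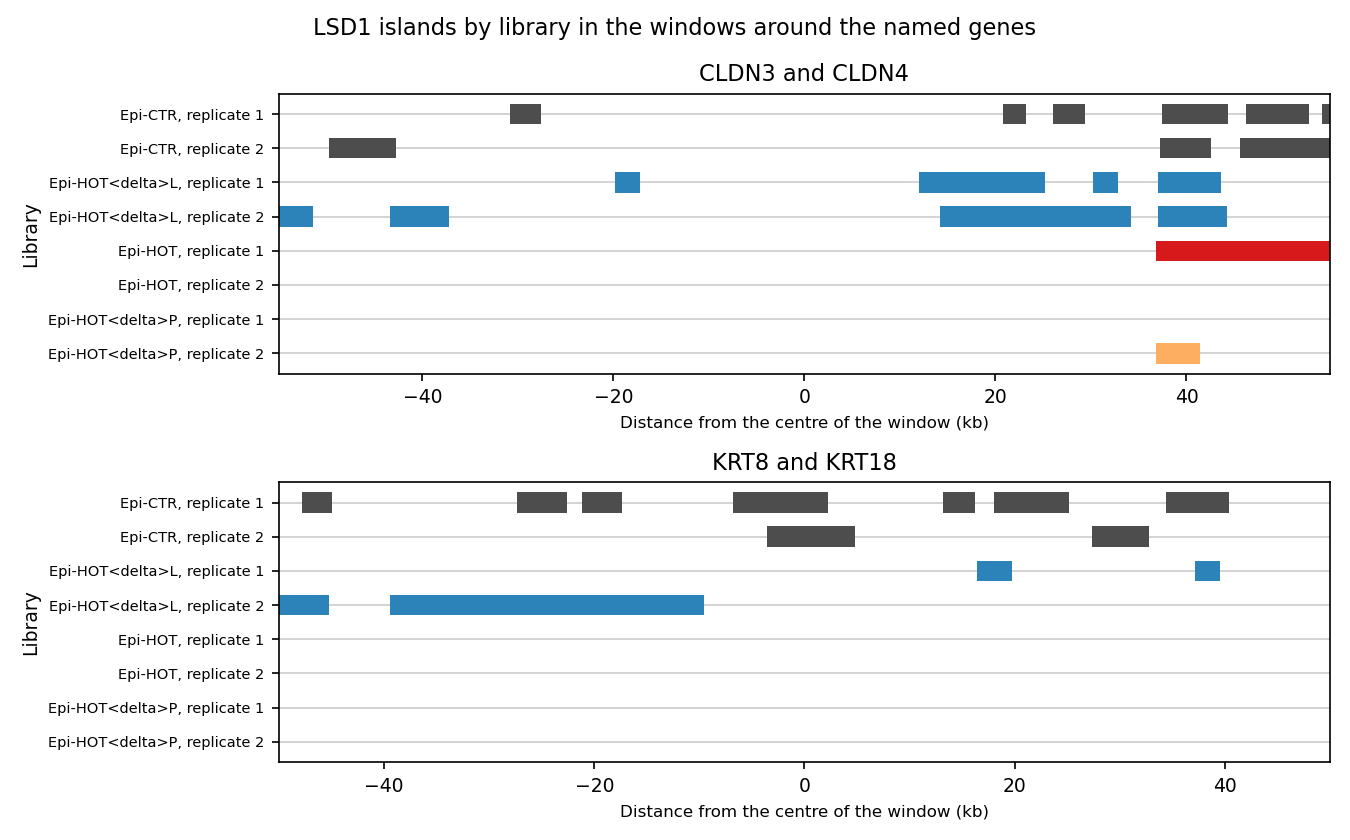
LSD1 islands (bars, clipped at the window edges) in the CLDN3 and CLDN4 window and the KRT8 and KRT18 window, 1 row per library, against the distance from the centre of the window in kb. In the claudin window 6 libraries have an island at the same 4 kb, and in the keratin window at most 2 libraries cover any base.

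ESRP1 and ESRP2 encode RNA-binding proteins that keep epithelial splice forms, and lie between VIRMA and DPY19L4 and between NFATC3 and PLA2G15. ESRP1 was covered over 2.2 and 10.2 kb in Epi-CTR replicates 1 and 2 and 13.4 kb in Epi-HOT<delta>L replicate 1, and had no island in the other 5 libraries. These 3 libraries met over 2.2 kb at chr8:95730601-95732800, with FDRs of 0.0189 and 0.0385 in Epi-CTR and 9.35e-04 in Epi-HOT<delta>L. Epi-HOT and Epi-HOT<delta>P were without islands at ESRP1, as at the keratins, but so was Epi-HOT<delta>L replicate 2.

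ESRP2 was covered over 11.8 and 3.6 kb in Epi-CTR replicates 1 and 2, 3.4 and 27.4 kb in Epi-HOT<delta>L replicates 1 and 2, and 11.6 kb in Epi-HOT<delta>P replicate 2. Epi-HOT had no island there. Of all the windows, ESRP2 was the one where Epi-HOT<delta>P had islands and overlapped the control range while Epi-HOT had none. A place of 1.6 kb, chr16:68278801-68280400, was covered in both Epi-CTR libraries, Epi-HOT<delta>L replicate 2 and Epi-HOT<delta>P replicate 2. The 27.4 kb come from 1 island of 37 kb (FDR 2.25e-05).

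GRHL2, a transcription factor that maintains epithelial gene expression, differed from the other genes in having no island in Epi-CTR. Epi-HOT<delta>L replicates 1 and 2 had 5 and 3.6 kb, Epi-HOT replicate 1 had 4.4 kb and Epi-HOT<delta>P replicate 2 had 12.2 kb, each from a single island. These 4 islands shared no base and had FDRs of 0.0195 to 0.0444, and none passed 0.001. The mean was 4.15 ± 5.75 kb (SD over libraries) in Epi-HOT and Epi-HOT<delta>P together and 2.15 ± 2.55 kb in the other 4 libraries. The exact two-sided permutation p over libraries was 0.714.

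**Figure D4:**
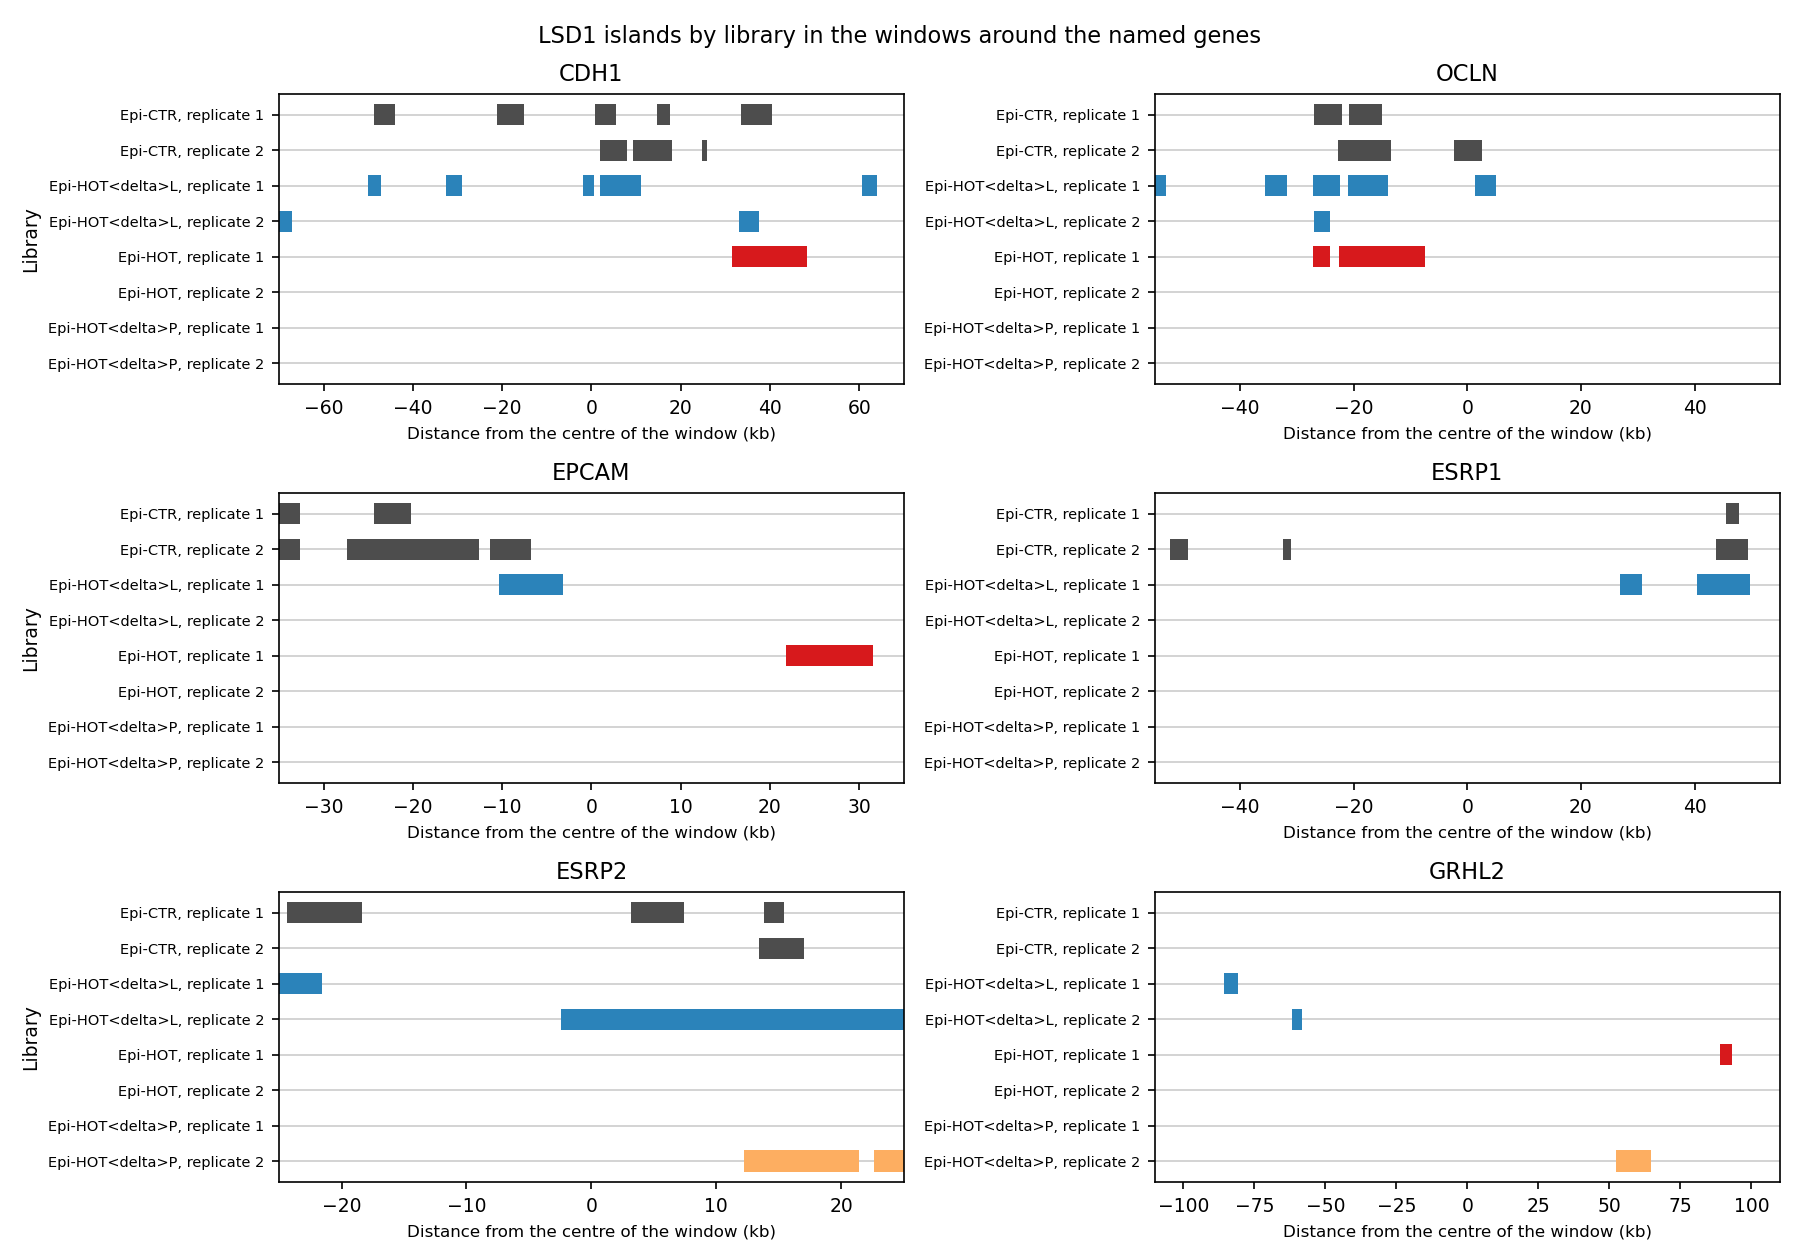
LSD1 islands (bars, clipped at the window edges) in the windows of CDH1, OCLN, EPCAM, ESRP1, ESRP2 and GRHL2, 1 row per library, against the distance from the centre of the window in kb. Epi-HOT replicate 1 has islands at CDH1, OCLN, EPCAM and GRHL2, and Epi-HOT<delta>P replicate 2 at ESRP2 and GRHL2.

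Epi-HOT was then compared with Epi-CTR place by place, to see where LSD1 islands differ when HOTAIR is expressed. Islands of the 4 lists that shared a base were merged into regions, and a region was called lost where both Epi-CTR libraries and neither Epi-HOT library had an island, and gained in the opposite case. Of 32 regions at the epithelial genes, 7 (21.9%) were lost, against 15.1% of all 29678 regions. A gained region (0, against 0.145%) or one held by all 4 libraries (0, against 0.381%) could hardly occur here, since Epi-HOT replicate 2 had no island in the windows, and without that library 2 were gained. The 7 lay in 5 windows, 2 each in those of CDH1 and EPCAM and 1 each in those of ESRP1, ESRP2 and the keratins. Their positions relative to the genes were not determined. No region was lost at the claudins or OCLN, where Epi-HOT replicate 1 had islands at the places shared by the Epi-CTR libraries, nor at GRHL2.

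The lost regions with the smallest FDRs in both Epi-CTR replicates were chr12:53313201-53324800 at the keratins (2.88e-07 and 6.50e-07) and chr2:47577601-47592400 at EPCAM (3.65e-07 and 8.37e-06). The lost regions at CDH1, chr16:68820801-68828000 and chr16:68829401-68838000, were weaker, with FDRs of 0.00494 and 0.0055 and of 0.00202 and 0.00166. Without Epi-CTR replicate 1 or 2, 14 or 20 regions had islands in the remaining Epi-CTR library and none in Epi-HOT. An FDR limit of 0.001 left 2 lost regions. The share of lost regions at these genes was thus of the order found over all regions.

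The next comparison, of Epi-HOT<delta>L with Epi-HOT, concerns the LSD1-interacting part of HOTAIR. Of 29 regions, 1 (3.45%) had an island in both Epi-HOT<delta>L libraries and in neither Epi-HOT library, against 11.5% of all 28682 regions. It was the stretch chr7:73227001-73249200 in the claudin window, and its position relative to the 2 genes was not determined. Regions in the opposite direction (0, against 0.261%) or in all 4 libraries (0, against 0.195%) could hardly occur for the same reason, and without Epi-HOT replicate 2 there were 2 in the opposite direction. A single library accounted for 25 of the 29 regions. The same Epi-HOT libraries served here and in the comparison with Epi-CTR. Without Epi-HOT<delta>L replicate 1 or 2 the first number was 8 or 18, and without Epi-HOT replicate 1 it was 3. An FDR limit of 0.001 left 0.

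The 7 regions lost in Epi-HOT were also looked up in the deleted forms. None had an island in both Epi-HOT<delta>L libraries, and 4 had one in a single library, against 18.9% with both and 59.2% with at least 1 of all 4485 lost regions. The 4 were both CDH1 regions and the ESRP1 region, in Epi-HOT<delta>L replicate 1, and the ESRP2 region, in replicate 2. The ESRP2 region also had an island in Epi-HOT<delta>P replicate 2. The regions at the keratins and at EPCAM had none in either deleted form. Counting single islands of the windows instead, 20 of the 32 islands of Epi-HOT<delta>L met at least 1 island of Epi-CTR, 17 one of replicate 1 and 10 one of replicate 2.

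Epi-HOT<delta>P could hardly be compared with Epi-HOT at these genes. A single library accounted for 8 of the 9 regions. None was gained, lost or held by all 4 libraries, against 0.811%, 1.13% and 0.0804% of all 14919 regions. With 1 library of each line without any island in the windows, these calls could hardly be made. Epi-HOT replicate 1 and Epi-HOT<delta>P replicate 2, taken alone, shared a place in the claudin window. A further 5 regions were held by the former alone and 3 by the latter alone.

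Over all 8 lists, the islands at the epithelial genes merged into 40 regions, and 19 of these (47.5%) came from 1 library only, against 59.7% of all 41795 regions. A further 12 regions were held by 2 libraries, and 5 (12.5%) by 4 or more, against 9.55%. The 5 include parts of islands beyond the windows. They lay at both ends of the claudin window, at OCLN, at ESRP2 and at the edge of the CDH1 window, and none at EPCAM, ESRP1, the keratins or GRHL2.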

How the data were processed

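Of the 16 libraries, 8 IP libraries gave 1 list each, with replicates kept apart, per the labels. The only value per island in the deposited lists is an FDR, a p-value of IP over Input adjusted by the authors' caller. Bowtie2 2.1.0, SICER 1.1 and the build hg19 are named, per the submitters' processing notes, without the step of each. Per the labels, the window was 200 bp, the gap 1000 bp and the FDR limit 0.05, followed by a filter that is not explained. No reads are listed, so depth and its precision are unknown, and joining across gaps can turn several enriched stretches into 1 island.

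Windows, genes and the sets of lines were chosen with earlier results of these data known. All 10 genes are named. Covered length, presence and merged regions (sharing at least 1 bp) were computed per library in Python 3.11.15 with numpy 2.4.6, and figures drawn with matplotlib 3.10.9. Covered length was compared by exact permutation of the 8 libraries. The background was all merged regions, or autosomal bins of 100 kb from the first to the last island of a chromosome (2785 Mb). The counting was tested on simulated lists. Positions count from 1. The gene table and promoters are of GRCh38.p14 and gave only neighbours (protein-coding) and sequences, so exons and introns under the islands, and other epithelial genes, were not used here. Alternatives were an FDR of 0.001, equal list lengths, 50% of an island within the window, windows widened by 50 kb, other bin sizes, a replicate block, and leaving out each library. Leaving out the 2 libraries without islands in the windows was added after seeing the data.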

Additional observations from a re-analysis of the deposited data

Results flagged for a closer look

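In 4 windows a single library lay far above the other 3 of the set formed by Epi-HOT and Epi-HOT<delta>P, which were all at 0. Epi-HOT replicate 1 was covered over 17 kb at CDH1, 9.8 kb at EPCAM and 18.2 kb at OCLN. Epi-HOT<delta>P replicate 2 was covered over 11.6 kb at ESRP2. Each set of 4 libraries holds 2 lines, and 16 sets were looked at. Epi-HOT replicate 2 and Epi-HOT<delta>P replicate 1 had no island in any window. A window covered in only 1 of the other 2 libraries of this set therefore stood out by construction.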

How the results depend on the processing

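The claudin and keratin windows stayed the 2 separated ones with 50% of an island required in the window and without Epi-HOT replicate 2 and Epi-HOT<delta>P replicate 1 together. With windows widened by 50 kb the 2 were CDH1 and the keratins. The number was 0 at an FDR of 0.001 and 0 with equal list lengths, where the shortest list, of 1116 islands, would meet the windows 0.400 times if spread evenly, so zeros at equal length show little. Leaving out 1 library gave 2 to 4, the highest without Epi-HOT replicate 1, when CDH1 and OCLN joined. Bins of 50 or 200 kb changed the background share to 1.76% or 4.02% and no window. Regions lost in Epi-HOT against Epi-CTR numbered 2 at an FDR of 0.001 and 0 with equal lengths, and 7 to 20 with 1 library left out. Regions gained there were 0 to 2 with 1 library left out. For Epi-HOT<delta>L against Epi-HOT, regions in both Epi-HOT<delta>L libraries alone numbered 0 at an FDR of 0.001, 0 with equal lengths and 1 to 18 with 1 library left out, and those in the opposite direction 0 to 2. For Epi-HOT<delta>P against Epi-HOT the ranges were 0 to 3 gained and 0 to 5 lost. Without the 2 libraries that had no island in the windows, a choice made after seeing the data, the gained regions of Epi-HOT against Epi-CTR were 2, those lost in Epi-HOT<delta>L against Epi-HOT 2, and those gained and lost in Epi-HOT<delta>P 3 and 5. Calls of both libraries of a line need fewer islands when 1 is left out, which by construction raises these numbers.

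The replicate numbers did not pair the libraries: differences between replicates 1 and 2 over 100 kb bins correlated between lines at -0.541 to 0.543 (6 pairs of lines). With the replicate block, in which libraries were compared only within a replicate number, 3 windows were separated, CDH1 in addition, and the exact permutation p of these 3 was 0.0556, the smallest that 36 regroupings allow. Depth is unknown, so a missing island limits every count of absence.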
